A study of Mus musculus with 5 samples.

Results

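The genes described here are 10 targets and feedback regulators of the Wnt pathway, namely Axin2, Lgr5, Rnf43, Znrf3, Sp5, Nkd1, Notum, Rspo3, Lect2 and Rgn. They were picked by name from the 55397 genes of a bulk RNA sequencing (RNA-seq) table, and each of the 10 symbols matched 1 row. The names were proposed with earlier results of these data known, and no measured value enters the rule. Their RNA was measured in 5 mouse liver tumours, 2 from Control and 3 from late Prox1 overexpression (Prox1 OE). Prox1 is a homeobox transcription factor of the hepatocyte and of other lineages, and the comparison asks what changed when it was raised in established tumours.

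All tumours came from female C57BL/6N mice whose livers had received plasmids at 8 weeks of age through a rapid, large-volume tail vein injection. Sleeping Beauty transposase, an enzyme that inserts transposon DNA into the genome, was given from a CMV plasmid to every mouse. Both groups carried transposons with Akt and with the intracellular domain of the NOTCH receptor (NICD), the latter joined to rtTA, the protein that responds to doxycycline, and both transposons used the EF1a promoter. The Prox1 OE group also carried FLAG-tagged mouse Prox1 with GFP behind a doxycycline-responsive (Tre) promoter, and the Control group carried the same plasmid with GFP and no Prox1 (EV). Doxycycline food at 6.25% was begun on day 21, and the labels give overexpression from week 3 to week 4. Per the labels a tumour was taken either 1 week into overexpression or at the humane endpoint, and they leave out which it was for each. The model is limited in that only liver cells that took up plasmid were transformed, while the dissected tumours also held cells that had not been. Labels do not tie libraries to separate mice, so that p-values measure the spread between these samples.

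Wnt proteins are secreted signals that bind Frizzled and Lrp5 or Lrp6 receptors, keep beta-catenin from being destroyed, and let it act with TCF and LEF factors on target genes. Many of those targets feed back on the pathway. Axin2 is part of the complex that destroys beta-catenin, Nkd1 binds Dishevelled, Notum removes the lipid that Wnt proteins need, and the ubiquitin ligases Rnf43 and Znrf3 take Frizzled receptors off the cell surface. R-spondins such as Rspo3 bind Lgr receptors such as Lgr5 and lift that last brake. In the liver, Wnt2, Wnt9b and Rspo3 come largely from endothelial cells near the central vein, and hepatocytes there express glutamine synthetase (Glul), Axin2, Lgr5, Lect2 and Rgn.

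RefSeq promoters of build GRCm38.p6 (mm10 has the same sequence) were found for 5 of the 10 genes, Sp5, Nkd1, Rnf43, Axin2 and Lect2, with 6 promoters among them, because Rnf43 had 2. They were searched over 250 bases before and 50 bases after the start for letters of the TCF/LEF motif on both strands, and 2 of the 6 held a match, against 16.9% of 32851 promoters of the same length. The letters searched were CTTTGAA (found in 5.14% of the 32851 promoters), CTTTGAT (found in 3.73%), CTTTGTA (found in 3.63%) and CTTTGTT (found in 5.85%). The 250 bases before the start are shown, 5′ to 3′ on the gene's strand with matches in capitals, for the 2 promoters with a match and for Axin2, the widely used reporter of the pathway, which had no match in this window. The Sp5 sequence lies at chr2:70474673-70474922 (+ strand), that of Lect2 at chr13:56548539-56548788 (- strand) and that of Axin2 at chr11:108920099-108920348 (+ strand).
Sp5: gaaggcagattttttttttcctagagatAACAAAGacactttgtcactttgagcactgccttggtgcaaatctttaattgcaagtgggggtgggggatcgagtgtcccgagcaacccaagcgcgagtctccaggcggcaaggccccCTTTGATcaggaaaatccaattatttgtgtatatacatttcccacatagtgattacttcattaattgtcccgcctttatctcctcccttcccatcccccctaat
Lect2: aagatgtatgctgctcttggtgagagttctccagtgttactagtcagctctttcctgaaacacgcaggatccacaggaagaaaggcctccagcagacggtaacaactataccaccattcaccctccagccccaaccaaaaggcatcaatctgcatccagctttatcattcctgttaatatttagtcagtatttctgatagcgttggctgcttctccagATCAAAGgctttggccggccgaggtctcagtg
Axin2: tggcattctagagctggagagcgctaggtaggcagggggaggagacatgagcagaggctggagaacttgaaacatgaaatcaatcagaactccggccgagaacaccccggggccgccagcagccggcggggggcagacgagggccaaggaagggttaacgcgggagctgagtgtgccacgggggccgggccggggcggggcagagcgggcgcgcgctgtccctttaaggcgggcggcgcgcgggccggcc
Counted from the first transcribed base, the Sp5 matches ran from -222 to -216, on the reverse strand, and from -104 to -98. The Lect2 match ran from -32 to -26 and was also on the reverse strand. A match of letters is a description and not a binding site, and a window without one says nothing of the factors.

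Libraries held 48740863 to 56629477 reads, and 1 read was worth 0.822 to 1.18 normalised counts, meaning reads divided by the size factor of the library. Prox1 itself was at 4153 and 4664 normalised counts in Control replicates 1 and 2 and at 48090, 11113 and 8231 in Prox1 OE replicates 1, 2 and 3. All 3 values were higher than either Control value, by a log2 fold change of 1.90 ± 0.66 (SE, limma adjusted p = 0.061). It passed the test in several alternatives. These included the fits without Prox1 OE replicate 1 (1.12, adjusted p = 0.0056) and without Prox1 OE replicate 3 (2.39, adjusted p = 0.0325), and edgeR (2.36, adjusted p = 0.0465). Endogenous and plasmid-borne Prox1 were not told apart. In limma, 2933 genes were higher (17.1% of the 17105 tested) and 2769 lower (16.2%) in Prox1 OE at an adjusted p under 0.05, which is 33.3% in either direction. With total reads as the library size, a scaling under which the median of all genes shifted from -0.02 to -0.44 (log2), 1475 were higher and 6833 lower.

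Among the 10 genes, Notum, Lect2, Rgn and Sp5 rose in Prox1 OE (4 of 10, beside the 17.1% of all genes called higher) by 2.87-fold to 4.33-fold in the group means. No member passed the test in the lower direction (0 of 10, beside 16.2%), so that 4 were called in either direction, beside 33.3%. At an unadjusted p under 0.05 limma gave 5 higher and 1 lower, beside 22.8% and 22.9% of all genes. At an adjusted p under 0.05 edgeR gave 4 and 0, beside 18.0% and 15.7%, and DESeq2 gave 4 and 1, beside 20.3% and 18.6%. For 6 genes all Prox1 OE values exceeded both Control values, for 1 all were below, and the groups overlapped for the other 3. Over all genes tested those shares were 30.9% above, 32.4% below and 63.3% either way. The median log2 fold change of the 10 genes was 0.59, against -0.02 over all genes tested. Without Control replicate 1, the fit kept 1 of the 4 calls, that of Lect2.

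**Figure D1:**
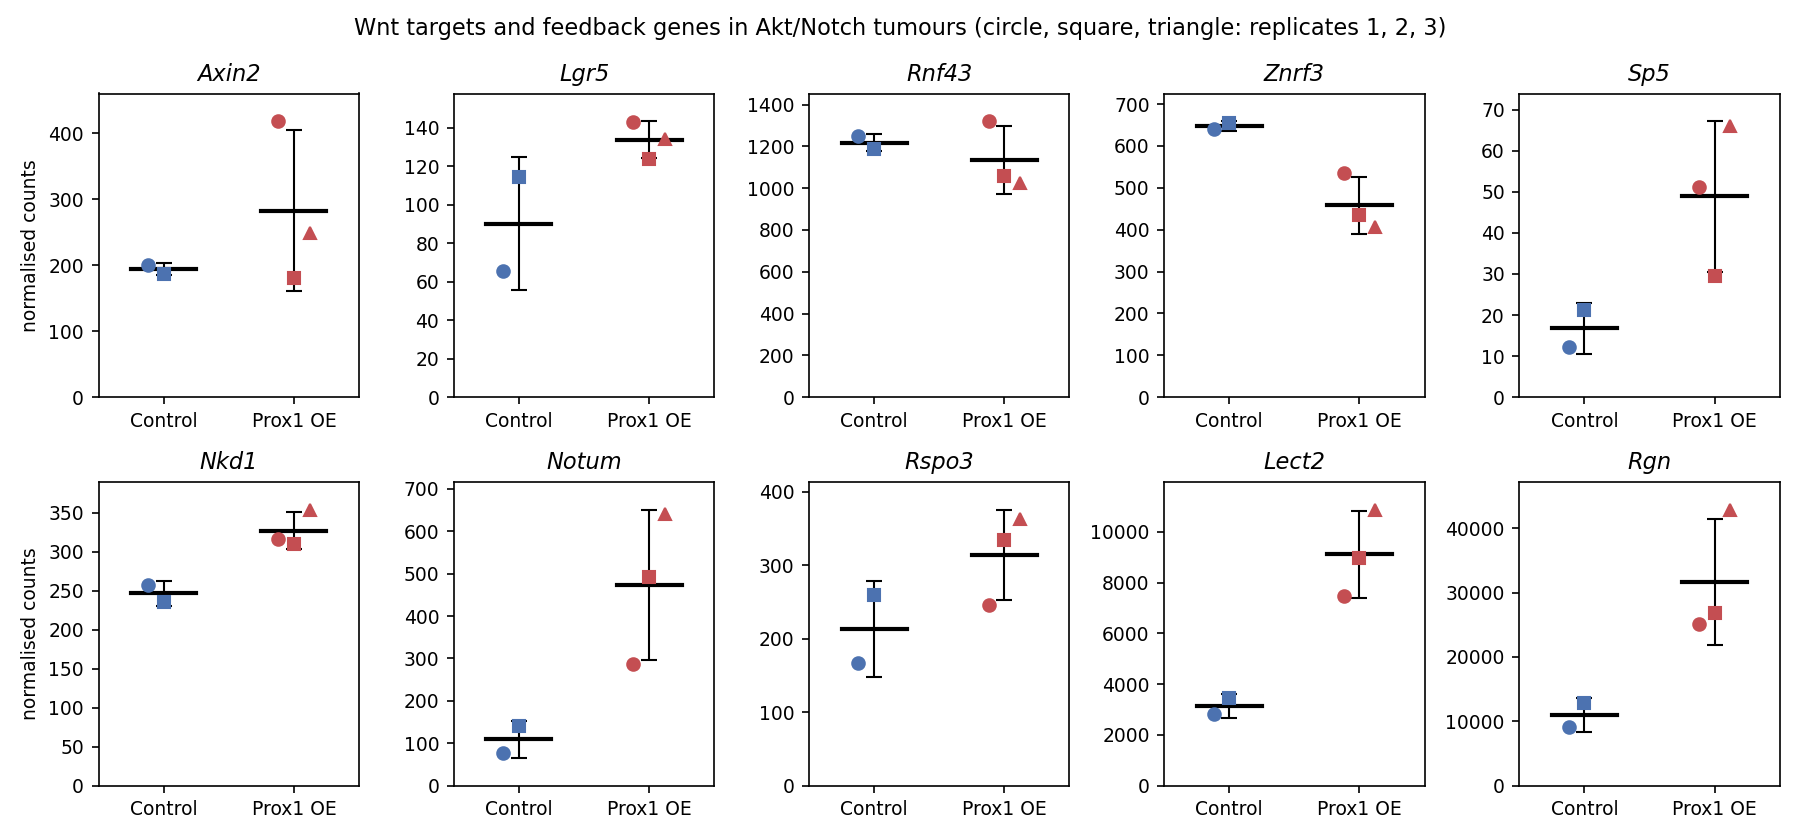
Each panel plots 1 gene in normalised counts, with Control libraries in blue, Prox1 OE libraries in red, a line for the group mean and bars of 1 SD (n = 2 and n = 3). Notum, Lect2, Rgn, Sp5, Nkd1 and Lgr5 have every red point above both blue points, Znrf3 has every red point below them, and Axin2, Rnf43 and Rspo3 overlap.

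Notum (ENSMUSG00000042988, chr11:120653788-120661175, - strand), the secreted enzyme that inactivates Wnt proteins, rose most. Its level was 78.0 and 141 normalised counts in Control replicates 1 and 2 and 287, 492 and 641 in Prox1 OE replicates 1, 2 and 3. The lowest Prox1 OE library was still well above the higher Control library. The log2 fold change was 2.09 ± 0.38 (SE, 95% interval 1.20 to 2.98, adjusted p = 0.0071), and it was 1.67 (adjusted p = 0.069) without Control replicate 1. An antisense gene, Notumos, overlaps it with a mean of 17.5 normalised counts, and whether counting used strand was not stated.

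Axin2 (ENSMUSG00000000142, chr11:108920349-108950783, + strand), the scaffold of the destruction complex, was at 200.5 and 187 normalised counts in Control and at 418, 181 and 249 in Prox1 OE. Only Prox1 OE replicate 1 stood well above Control, and replicate 2 lay below both Control libraries. The log2 fold change was 0.45 ± 0.33 (95% interval -0.33 to 1.24, adjusted p = 0.327). The estimate was 0.13 without Prox1 OE replicate 1 and 0.73 without Prox1 OE replicate 2, without a call in either. Prox1 OE replicate 1 was also the library with the most Prox1 reads and with the highest macrophage marker sum (42196 normalised counts, against 25650 and 33165 in the other Prox1 OE libraries and 17444 to 21138 in Control). Without Lyz2, the most abundant gene of that list, the sum was highest in Prox1 OE replicate 3 (15230, 11873 and 17300 in replicates 1, 2 and 3). The part of Prox1 or of macrophages in the Axin2 value was not tested.

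Nkd1 (ENSMUSG00000031661, chr8:88521354-88594884, + strand), which restrains the pathway at Dishevelled, was at 258 and 236 normalised counts in Control and 316, 310.3 and 354 in Prox1 OE. The groups were apart and each was narrow, with means of 247 ± 15.8 (SD, n = 2) and 327 ± 23.8 (SD, n = 3). A log2 fold change of 0.40 ± 0.17 (95% interval 0.01 to 0.79) had an adjusted p of 0.102. Total reads as library size, which shifts all genes down together, put it at -0.03, above the -0.44 of the median gene under that scaling.

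Neither receptor ligase passed the limma test as reported, with all 5 libraries and the deposited scaling. With total reads as library size both were called lower (Rnf43 at -0.54, adjusted p = 0.0408, and Znrf3 at -0.94, adjusted p = 0.0069, beside -0.44 for the median gene under that scaling). Rnf43 (ENSMUSG00000034177, chr11:87662722-87735539, + strand) was at 1248 and 1189 normalised counts in Control and 1321, 1057 and 1023 in Prox1 OE. Those groups overlapped, and the log2 fold change was -0.11 ± 0.15 (95% interval -0.46 to 0.23, adjusted p = 0.586). A gene within an intron of Rnf43, 1110028F11Rik, lies on the same strand with a mean of 112 normalised counts. Znrf3 (ENSMUSG00000041961, chr11:5276324-5444847, - strand) was at 640.0 and 656 in Control and 535, 434 and 406 in Prox1 OE. Every Prox1 OE library was below both Control libraries, with a log2 fold change of -0.51 ± 0.17 (95% interval -0.90 to -0.12) and an adjusted p of 0.0507, just outside the threshold. Znrf3 passed it in DESeq2 (adjusted p = 0.0281), with the smaller pseudocount of 0.1 (0.0499), with only genes of mean 50 or more tested (0.0449) and without Prox1 OE replicate 1 (0.012).

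Rspo3 (ENSMUSG00000019880, chr10:29452416-29535867, - strand), the ligand that protects Frizzled receptors from these ligases, was at 167 and 259 normalised counts in Control and 245, 334 and 363 in Prox1 OE. Prox1 OE replicate 1 fell between the Control libraries. Its log2 fold change was 0.57 ± 0.26 (95% interval -0.04 to 1.19, adjusted p = 0.129). Its receptor Lgr5 (ENSMUSG00000020140, chr10:115450311-115587780, - strand) was at 65.7 and 114 in Control and 143, 124 and 134 in Prox1 OE. The Control libraries lay far apart while the Prox1 OE libraries lay close together, at 90.1 ± 34.4 (SD, n = 2) and 134 ± 9.63 (SD, n = 3). All Prox1 OE values were higher, by a log2 fold change of 0.62 ± 0.28 (95% interval -0.05 to 1.28) that did not pass the test (adjusted p = 0.133). With 1 library left out the estimates ran from 0.22 to 1.01 for Lgr5 and from 0.26 to 0.89 for Rspo3.

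Sp5 (ENSMUSG00000075304, chr2:70474923-70477729, + strand), a zinc finger transcription factor and direct target of beta-catenin, was the least read of the 10. It had 15 and 25 reads in Control and 50, 25 and 57 in Prox1 OE, which are 12.3 and 21.2 against 51.1, 29.5 and 66.0 normalised counts. Prox1 OE replicate 2 came close to the higher Control library. It rose by a log2 fold change of 1.46 ± 0.45 (95% interval 0.41 to 2.52, adjusted p = 0.0425). That call was lost without Control replicate 1 (adjusted p = 0.258), Control replicate 2 (0.0809), Prox1 OE replicate 1 (0.077) or Prox1 OE replicate 3 (0.117), with no filter on low values (0.0832), without the mean-variance trend (0.0551) and with total reads as library size (0.0749).

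Lect2 and Rgn are secreted and cytosolic hepatocyte products that mark the pericentral side of the lobule, and both were far more abundant than the feedback genes. Lect2 (ENSMUSG00000021539, chr13:56542464-56548502, - strand), a secreted chemotactic protein, was at 2812 and 3459 normalised counts in Control and 7479, 8975 and 10872 in Prox1 OE. The groups lay far apart, and no Prox1 OE library came near a Control library. The log2 fold change was 1.53 ± 0.18 (95% interval 1.11 to 1.95, adjusted p = 0.0025), and it passed the test in each of the 5 fits that left out 1 library. Rgn (ENSMUSG00000023070, chrX:20549787-20562089, + strand), regucalcin, a calcium-binding lactonase, was at 9170.3 and 12901 in Control and 25175, 26905 and 42909.7 in Prox1 OE. Prox1 OE replicate 3 was the highest for Rgn, as it was for Notum, Sp5, Nkd1, Rspo3 and Lect2. For Rgn the log2 fold change was 1.50 ± 0.26 (95% interval 0.89 to 2.11, adjusted p = 0.0061), and it was 1.25 (adjusted p = 0.0699) without Control replicate 1.

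**Figure D2:**
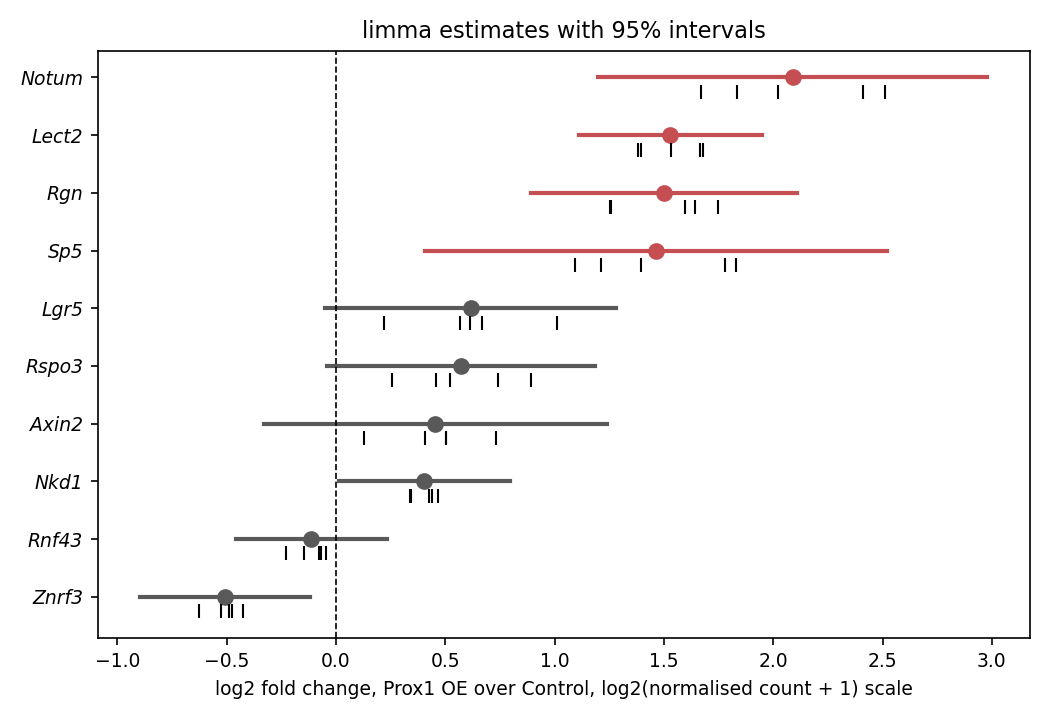
Points are limma log2 fold changes, Prox1 OE over Control, on the log2(normalised count + 1) scale, bars are 95% intervals and small ticks are the estimates with 1 library left out. Red marks the 4 genes with an adjusted p under 0.05, Notum (2.09), Lect2 (1.53), Rgn (1.50) and Sp5 (1.46), and only Rnf43 and Znrf3 have estimates below 0 under the deposited scaling, while Nkd1 is also at -0.03 with total reads as library size.

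To compare levels between genes, normalised counts were divided by exon length in kilobases. In Control the order of the mean level per kilobase was Rgn (6867), Lect2 (3412), Rnf43 (186), Znrf3 (82.1), Rspo3 (69.0), Nkd1 (54.1), Notum (45.4), Axin2 (35.2), Lgr5 (8.78) and Sp5 (7.98). From Znrf3 to Axin2 each gene's libraries overlapped those of the next in order, as did Lgr5 and Sp5, and the other neighbours did not overlap. In Prox1 OE, Notum moved from the seventh to the third place, at 197 per kilobase. It then overlapped Rnf43 (173), which in Control had stood above it in both libraries. Znrf3, at 58.1 per kilobase, moved from the fourth to the seventh place, below Rspo3 (102) and Nkd1 (71.7), and overlapped Axin2 (51.3). Sp5 (23.3) and Lgr5 (13.0) came last, and no other neighbours overlapped.

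Hepatocyte and bile duct genes moved with the groups. The summed level of 11 abundant hepatocyte genes, Alb among them, ran from 1086421 to 1674100 normalised counts in Control and from 3375716 to 4771262 in Prox1 OE, a ratio of means of 2.79, and 9 of the 11 rose. Of the 8 bile duct genes, 6 fell and the sum was 0.776 times Control (748735 to 817889 in Control, 520245 to 703328 in Prox1 OE). Spp1, which was not called, made up 95.5% of the Control sum, and the sum of the other 7 was 33140 to 36725 in Control and 10928 to 14503 in Prox1 OE, a ratio of 0.360. None of the markers on either list was at 0 in every library. In bulk RNA, fewer cells of a type and less RNA per cell cannot be told apart. Rgn and Lect2 rose by 2.87-fold and 2.90-fold in the group means, and the part of the hepatocyte gene level in these rises was not tested.

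Levels were therefore also set against the summed hepatocyte level of the same library, a description chosen after the values were seen and given with no test. Per 1000 of that sum, Rgn was at 8.44 and 7.71 in Control and 7.46, 7.89 and 8.99 in Prox1 OE, with a ratio of means of 1.00. Lect2 overlapped likewise, with a ratio of 1.02, and so did Sp5, with 1.05. Notum was at 0.0718 and 0.0841 in Control and 0.0851, 0.144 and 0.134 in Prox1 OE, a ratio of 1.56. It was the 1 member of the 10 whose Prox1 OE libraries all stayed above Control on this scale, with Prox1 OE replicate 1 only just above. Alb made up 46.3% of the hepatocyte sum in Control, and levels against the sum without Alb were not computed. The ratios and overlaps here therefore hold for the sum with Alb only. Lgr5 (0.553), Rnf43 (0.328), Znrf3 (0.252), Nkd1 (0.456) and Rspo3 (0.533) were lower in every Prox1 OE library on this scale, and Axin2 overlapped (0.515). The sum itself was 2.79 times Control, so a gene with unchanged normalised counts falls on this scale. The share of all genes lower on it was not computed. In normalised counts Lgr5, Nkd1 and Rspo3 had positive log2 fold changes (0.62, 0.40 and 0.57), without a call. Genes that non-hepatocytes express are not measured per hepatocyte by such a ratio.

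**Figure D3:**
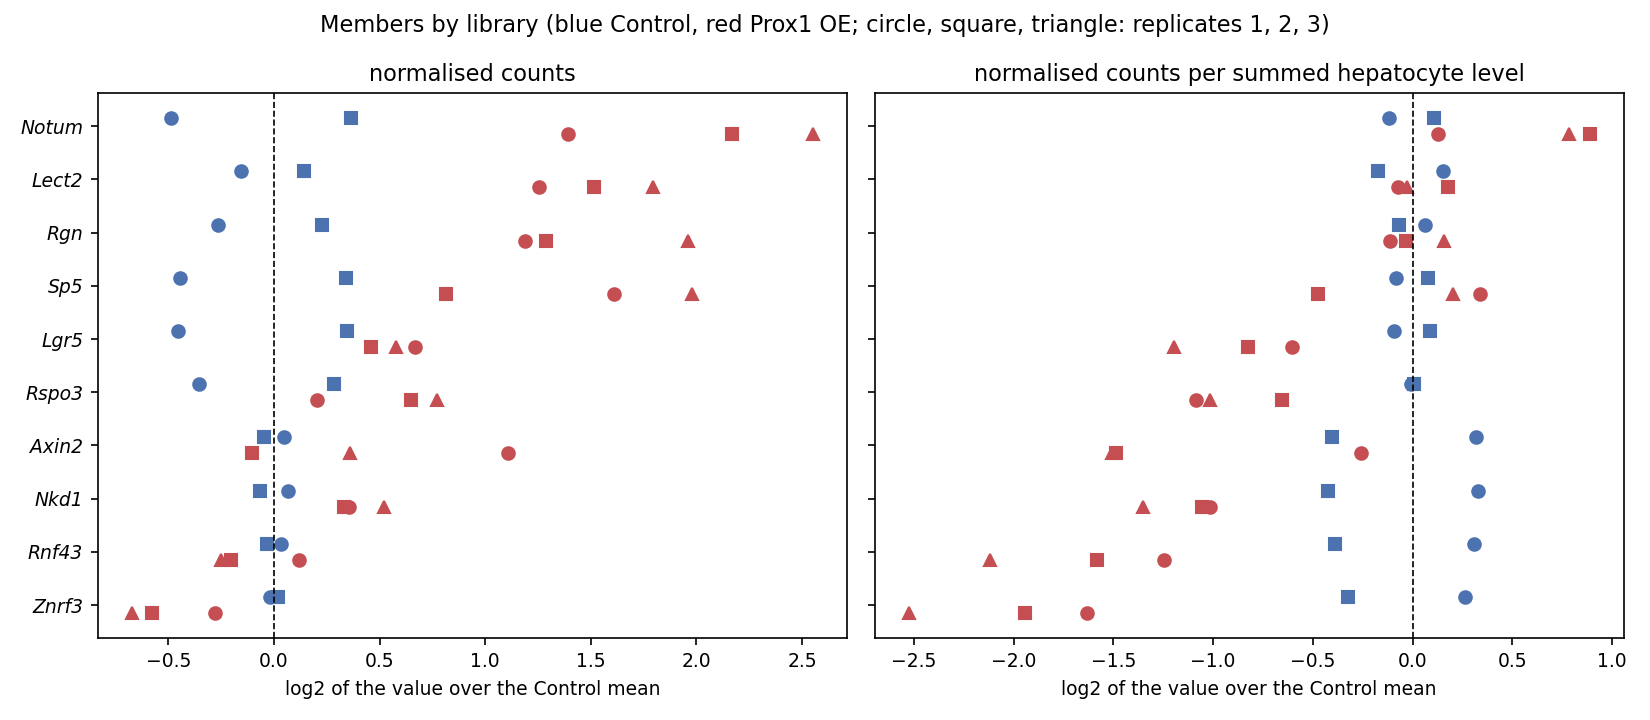
Each point is a library's value over the Control mean, as log2, from normalised counts on the left and per summed hepatocyte level on the right, with Control in blue and Prox1 OE in red. Rgn, Lect2 and Sp5 are shifted right of 0 on the left and straddle 0 on the right, Notum stays to the right (ratio of means 1.56), and Znrf3 lies furthest left (0.252).

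The other genes of the pathway were described in 7 lists that held 88 genes beside the 10. Of these, 66 were abundant enough to test, and 9 were at or under 3 reads in every library. Among the 66, 4 rose (Wnt2, Wnt9b, Dvl1 and Tcf7), beside 17.1% of all genes, and 32 fell, beside 16.2%. The median log2 fold change was -0.57, against -0.02 for all genes. With total reads as library size, a scaling that puts the median of all genes at -0.44, 0 of them rose in limma and 47 fell. Leaving out Control replicate 1 left 0 higher and 9 lower, Control replicate 2 left 0 and 14, Prox1 OE replicate 2 left 0 and 23, and Prox1 OE replicate 3 left 0 and 26, whereas 6 were higher and 39 lower without Prox1 OE replicate 1.

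Of 21 ligands and export factors, 11 were tested, 2 rose and 6 fell. Both that rose are the ligands that central vein endothelium is known to supply. Wnt2 was at 60.8 and 109 normalised counts in Control and 154, 166 and 294 in Prox1 OE (log2 fold change 1.26 ± 0.37, adjusted p = 0.0358). Wnt9b was at 69.0 and 54.3 in Control and 104, 123 and 117 in Prox1 OE (0.89 ± 0.24, adjusted p = 0.0287). For Wnt2 the adjusted p was 0.263, 0.0522, 0.0749 and 0.0803 without Control replicate 1, Control replicate 2, Prox1 OE replicate 2 and Prox1 OE replicate 3, and for Wnt9b it was 0.114, 0.208, 0.0841 and 0.0696. The summed level of 5 central vein endothelial genes, these 2 included, was 1945 to 2047 in Control and 1645 to 1913 in Prox1 OE, a ratio of 0.902. The 2 of the 5 that rose are Wnt2 and Wnt9b themselves, so the list is no separate measure beside them. Vwf fell, and Thbd overlapped. Selp, without a call, was at 166 and 181 in Control and 143, 111 and 78.7 in Prox1 OE. Vwf made up 55.0% of the Control sum. Without Vwf the sum, which still holds Wnt2 and Wnt9b, was 890.0 to 908 against 875 to 1283, a ratio of 1.24 with overlap. Of 10 liver endothelial genes, 4 rose, and their sum was 13631 to 17573 in Control and 19389 to 25443 in Prox1 OE, with none at 0 in every library. Of the other 6, without a call, Kdr and Oit3 were above Control in every Prox1 OE library (ratios of means 1.36 and 1.64), and Pecam1 and Cdh5 were below it (0.829 and 0.799). The part of endothelial cells in the ligand values was not tested.

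Of the ligands that fell, Wnt4 was at 2016 and 1816 normalised counts in Control and 701, 701 and 631 in Prox1 OE (log2 fold change -1.50 ± 0.13, adjusted p = 0.0018). Wnt7b was at 808 and 622 in Control and 217, 147 and 104 in Prox1 OE (-2.24 ± 0.31, adjusted p = 0.0033). Neither pair of groups came near to overlapping. Wnt5b (-1.81) and Wnt7a (-1.34) fell too, as did Wnt5a (-1.10) and the exporter Wls (-1.14), both of which were picked after their values were seen. The Wnt7a call was lost in at least 1 fit with 1 library left out (estimates -1.47 to -1.13), and that of Wnt5b was kept.

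**Figure D4:**
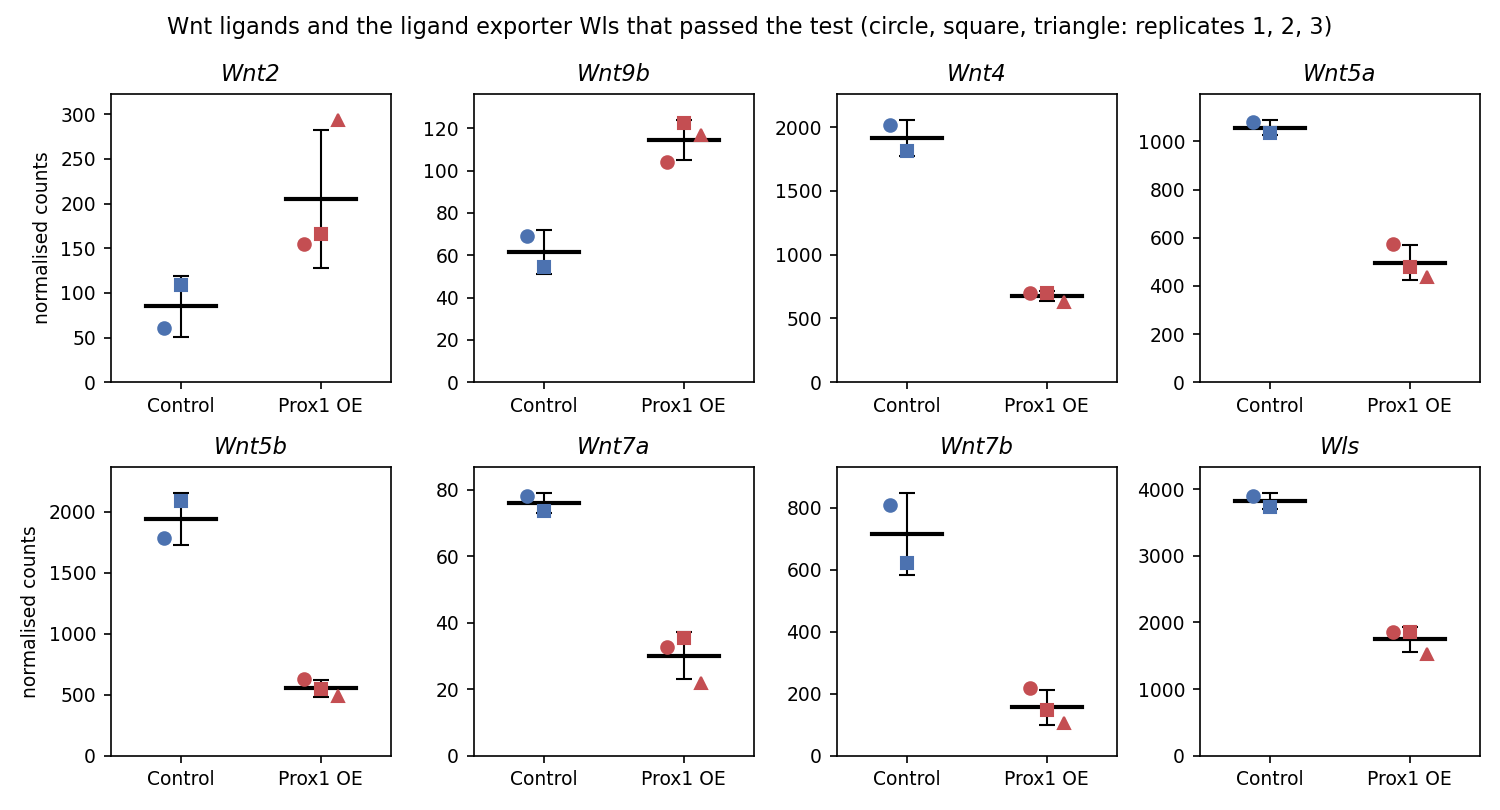
Panels plot the 7 Wnt ligands and the exporter Wls with an adjusted p under 0.05 in normalised counts, Control in blue and Prox1 OE in red, with group means and bars of 1 SD. Wnt2 and Wnt9b have every red point above the blue points and the other panels have every red point below them. With total reads as library size Wnt2 and Wnt9b stayed higher in Prox1 OE (0.83 and 0.47 on the log2 scale) without passing the test.

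Further along the pathway, 7 of 14 tested receptors fell, beside 16.2% of all genes. Fzd2 (log2 fold change -1.47), Fzd1 (-1.13), Ror1 (-0.98) and Fzd3 (-0.95) led, and each lost its call in at least 1 fit with 1 library left out. Their estimates then ran from -1.55 to -1.32, -1.27 to -0.98, -1.11 to -0.85 and -1.02 to -0.88 in that order. Lgr4, the other R-spondin receptor abundant enough to test, fell by 0.69 on the log2 scale (adjusted p = 0.0081). Its call too was lost in at least 1 fit with 1 library left out (estimates -0.75 to -0.60). Among 10 tested secreted or membrane inhibitors 3 fell, Dkk2 (-2.04), Nkd2 (-0.75) and Frzb (-0.70). Nkd2 and Frzb also lost the call in at least 1 such fit, with estimates of -0.83 to -0.65 and -0.74 to -0.64. Dkk2 was at 37.0 and 108 normalised counts in Control and 19.4, 15.3 and 10.4 in Prox1 OE. Its log2 fold change was -2.80 without Control replicate 1 and -1.28 without Control replicate 2, and the call was lost without the latter (adjusted p = 0.177), Prox1 OE replicate 2 (0.0667) or Prox1 OE replicate 3 (0.058). Dkk2 blocks the Lrp co-receptors, Nkd2 is the paralogue of Nkd1, and Frzb binds Wnt proteins outside the cell.

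In the list of destruction and relay factors, 6 of 12 fell and 1, Dvl1 (log2 fold change 0.48), rose. Those that fell included the tankyrases Tnks (-1.04) and Tnks2 (-0.85), which mark axin proteins for removal, the scaffold Apc (-0.68) and beta-catenin itself. The Apc call was lost in at least 1 fit with 1 library left out (estimates -0.82 to -0.60). Ctnnb1, which encodes beta-catenin, was at 38802 and 37161 normalised counts in Control and 28230, 22637 and 21199 in Prox1 OE. All Prox1 OE libraries were below Control, with a log2 fold change of -0.67 ± 0.17 (adjusted p = 0.0201). The adjusted p was 0.162 without Control replicate 1, 0.113 without Control replicate 2 and 0.0632 without Prox1 OE replicate 2. Since RNA was measured, these values do not give the amount or place of the protein.

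Of 13 tested nuclear factors 4 fell, with Bcl9l (-0.84), Tle3 (-0.74) and Tle4 (-0.62) leading, and Tcf7 rose (0.59, adjusted p = 0.0458). The Tcf7 call was lost in 4 of the 5 fits with 1 library left out. Those of Bcl9l, Tle3 and Tle4 were each lost in at least 1 of these fits. Their estimates ran from -0.97 to -0.72, -0.88 to -0.63 and -0.69 to -0.55. Tcf7l2, the TCF factor that liver mainly uses, was at 729 and 886 normalised counts in Control and 589, 754 and 758 in Prox1 OE, with overlap (-0.21 ± 0.17, adjusted p = 0.380). Lef1 was low throughout, at 6.57 and 19.5 in Control and 8.18, 8.26 and 13.9 in Prox1 OE (adjusted p = 0.811).

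Of 8 tested targets of the pathway known from other tissues, 5 fell and 1, Tcf7, rose. Cd44, a hyaluronan receptor, was at 3129 and 4156 normalised counts in Control and 1583, 1267 and 1420 in Prox1 OE (log2 fold change -1.35 ± 0.16, adjusted p = 0.0026). Sox9, a bile duct and progenitor transcription factor that is also on the bile duct list, fell with it (-1.21), and so did Myc (-0.74) and Tnfrsf19 (-0.72). With 1 library left out, Myc (-0.84 to -0.63) and Tnfrsf19 (-0.87 to -0.58) each lost the call in at least 1 fit. Akt1 (-1.05) and Notch1 (-1.19), the genes of the tumour-starting plasmids, were lower in Prox1 OE as well, with endogenous and plasmid reads not told apart. Both calls were lost without Control replicate 1 (adjusted p = 0.0694 for Akt1 and 0.0526 for Notch1).

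Genes of the pericentral hepatocyte, which include liver Wnt targets, rose in 13 of 15 cases, beside 17.1% of all genes, with Tbx3 and Ahr not called. Glul, glutamine synthetase and a standard marker of Wnt activity in hepatocytes, was at 10166 and 11726 normalised counts in Control and 26890.5, 34859 and 53288 in Prox1 OE (log2 fold change 1.75 ± 0.27, adjusted p = 0.0043). Cyp2e1, a drug and ethanol oxidising enzyme, was at 14115 and 26844 in Control and 43979, 70476 and 112242 in Prox1 OE (1.85 ± 0.41, adjusted p = 0.0143). Without Control replicate 1 the adjusted p was 0.0506 for Glul and 0.132 for Cyp2e1. Cyp1a2 (2.71), Cyp2a5 (2.68, in a family of near-identical genes whose reads may have been shared), the ammonia transporter Rhbg (2.11) and Cyp7a1 (2.09), the rate-limiting enzyme of bile acid synthesis, rose most.

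Periportal hepatocyte genes, which Wnt signalling is known to restrain, were set beside them. They rose in 11 of 12 cases, all but Pck1, beside 17.1% of all genes. Hal (2.90), Gls2 (2.74), Ass1 (2.46) and Cyp2f2 (2.08) led. Hal was at 2.13 and 3.66, and Gls2 at 2.03 and 3.44, without Control replicates 1 and 2 in turn, and the Gls2 call was lost without Control replicate 1 (adjusted p = 0.0526). The median log2 fold change was 1.73 for the pericentral and 1.91 for the periportal list, and the summed levels were 2.76 and 3.58 times Control, beside the 2.79 of the abundant hepatocyte genes. Without the most abundant gene of each list (Aldh1a1, Cyp2f2 and Alb) these ratios were 3.28, 3.45 and 2.44. Per 1000 of the hepatocyte sum, Alb included, Glul (ratio of means 1.20) and Cyp2e1 (1.31) overlapped between the groups. Levels against the sum without Alb, which was 2.44 rather than 2.79 times Control, were not computed.

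**Figure D5:**
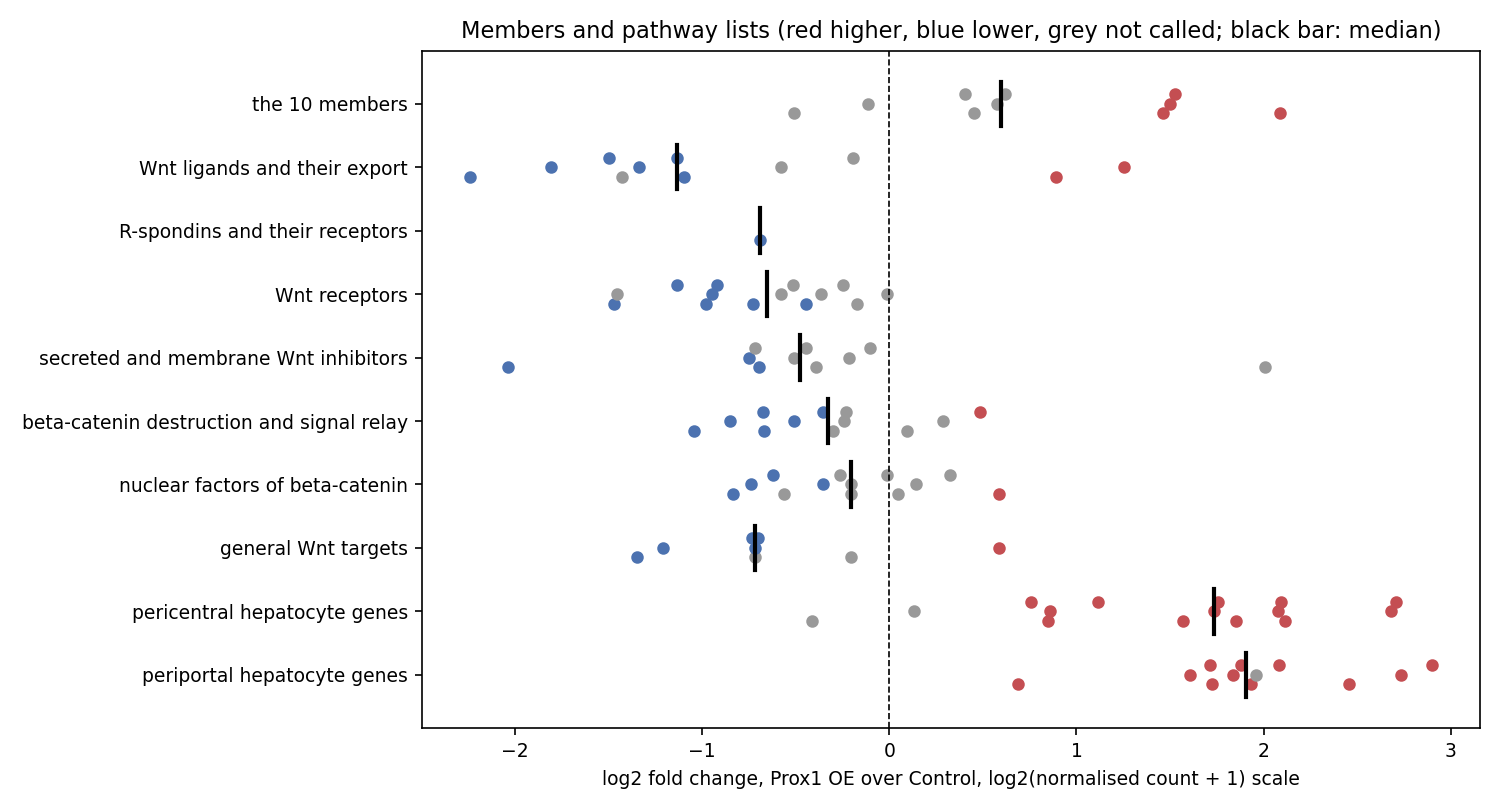
Each point is a tested gene's log2 fold change, Prox1 OE over Control, on the log2(normalised count + 1) scale, with red for higher, blue for lower and grey for not called at an adjusted p of 0.05, and a black bar for the list's median. Medians lie at 0.59 for the 10 members, at -1.14 for the ligands and their export, at 1.73 for pericentral and at 1.91 for periportal genes under the deposited scaling, and with total reads as library size the median of all genes shifts to -0.44.

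Other sources of Wnt and R-spondin signals were gauged by marker sums. Of 10 stellate cell genes, Lrat, Reln and Colec11 rose and Rgs5 fell, and the sum was 38083 to 38256 normalised counts in Control and 25899 to 29333 in Prox1 OE. Rgs5 made up 80.2% of the Control sum, and the other 9 genes summed to 7010 and 8128 in Control and 8690, 9586 and 12049 in Prox1 OE, higher in every Prox1 OE library. Of 6 fibroblast genes 4 fell, and the sum was 114303 to 119847 in Control and 58631 to 72251 in Prox1 OE. Macrophage sums were 17444 to 21138 against 25650 to 42196 (7502 to 8423 against 11873 to 17300 without Lyz2, 58.7% of the Control sum), with 1 of 6 genes called higher, and lymphocyte sums were 704 to 897 against 896 to 1266, with 2 of 5 called higher. Without Ptprc, 88.5% of the Control lymphocyte sum, the ratio of means was 2.17 rather than 1.38. No marker on these lists was at 0 in every library, and their part in the values of the 10 genes was not tested.

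Genes whose pattern lay nearest to Axin2 and Lgr5 were sought among 12969 genes with a mean of at least 100 normalised counts, by Euclidean distance between log2(normalised count + 1) values centred over the 5 libraries. For Axin2 the nearest 3 were Clec4a1 (distance 0.209), Tlr5 (0.217) and Robo1 (0.225). Clec4a1, a lectin of myeloid cells, was at 163 and 156 normalised counts in Control and 308, 162 and 212 in Prox1 OE. Prox1 OE replicate 1 stood highest for it, as for Axin2, and so it did for Tlr5 (670 against 284 to 337 in the other 4 libraries) and Robo1 (1605 against 751 to 1091). For Lgr5 they were 2410022M11Rik (0.156), the melatonin receptor Mtnr1a (0.170) and Lrrc29 (0.220). Mtnr1a was at 58.3 and 108.5 in Control and 123, 107 and 132 in Prox1 OE. With 5 libraries many genes can come this near, and no other member was among these 6.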

How the data were processed

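RNA from 5 dissected liver tumours was made by the authors into dUTP libraries, sequenced as paired reads and mapped to mm10 with STAR. How genes were counted, and whether by strand, was not given in the sources used here. The deposited signal is a normalised count per gene, reads divided by a DESeq2 size factor, from which whole reads were recovered for 100% of values (within 0.001 read). A deposited table of the authors' own comparison, holding shrunken fold changes, p-values and adjusted p-values, was not used.

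Groups followed the sample titles. The 17105 genes averaging 10 or more normalised counts were tested two-sided with limma 3.58.1 (R 4.3.3, mean-variance trend) on log2(normalised count + 1), which understates changes of low genes, with Benjamini-Hochberg adjustment at 0.05 and no covariate. Alternatives were TMM, upper-quartile and total-count scaling, a pseudocount of 0.1 or 10, no filter or a minimum mean of 50, limma without trend, edgeR 4.0.16 and DESeq2 1.42.0 on recovered reads, a replicate block (on replicates 1 and 2 of each group, without Prox1 OE replicate 3), and each library left out. Marker sums without the most abundant gene of a list, and levels per hepatocyte sum, were added after the values were seen. Counts of 3 reads (2.46 to 3.54 normalised counts) were taken as a floor, which covers counting error only. Replicates differed beyond sampling noise (36.2 to 115 chi-square per degree of freedom). Symbols, positions and exon lengths came from GENCODE for GRCm38, which matched 99.5% of identifiers. The fit was tested on simulated data.

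The members, lists and naming rule were chosen with earlier results of these data known. The rule named the members, Prox1, Akt1, Notch1, up to 4 called genes with the largest change per list, Wnt2, Wnt9b, Ctnnb1, Tcf7l2, Lef1, Glul, Cyp2e1, and the 3 nearest patterns to Axin2 and Lgr5. Genes given where a list had few exceptions were named after their values were seen.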

Additional observations from a re-analysis of the deposited data

How the results depend on the processing

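Of 159 values of the 10 genes over the alternatives, 142 kept their direction and side of the threshold, 10 lost the call, 6 gained one and 1 reversed, and the cause was not tested. With total reads as library size, 1475 genes were higher and 6833 lower, members lower numbered 2, Rnf43 (-0.54) and Znrf3 (-0.94), no pathway list gene was higher (0, from 4) and Nkd1 was at -0.027, a change of sign that goes with the downward shift of all genes (median -0.44) under this scaling. Members lower numbered 1, Znrf3, with 0.1 as pseudocount, at a minimum mean of 50 and in DESeq2. Pathway list genes higher numbered 0 with no filter, 2 in limma without trend and 1 with the replicate block, a fit that also left out Prox1 OE replicate 3, which has no Control partner. At a mean of at least 50, Sp5 was not tested. With 1 library left out, genes higher ranged from 681 to 3738 and lower from 477 to 3753, members higher from 1 to 4 and lower from 0 to 1, and pathway list genes higher from 0 to 6 and lower from 9 to 39, with the lowest counts of genes in the fit without Control replicate 1, whose lone Control library is assumed to vary like the other group. Lef1 ran from -0.92 to 0.51 and reversed without Control replicate 2. The replicate numbers are not stated to pair samples, and deviations of the same-numbered libraries correlated at 0.14 and 0.02. The replicate block, on replicates 1 and 2 of each group, gave 2676 genes higher and 2570 lower and 3 members higher, without Sp5 (1.21, adjusted p = 0.0966). Those 4 libraries without the block gave 2174 genes higher and 1931 lower, 3 members higher and 0 pathway list genes higher, and Sp5 was also not called (1.21, adjusted p = 0.117). Low reads limit Sp5, Lef1 and the 9 list genes at the floor.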

Other observations

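Some pathway genes were too low or too variable for a call, and their values are given as they stand. Wif1, a secreted Wnt inhibitor, was at 2.46 and 3.39 normalised counts in Control and 6.13, 14.2 and 34.7 in Prox1 OE (adjusted p = 0.0708). Rspo1, another R-spondin, was at 18.1 and 16.1 in Control and 4.09, 2.36 and 2.31 in Prox1 OE, and had too low a mean to be tested. The R-spondin receptor Lgr6 was at 14.8 and 6.78 in Control and 3.07, 1.18 and 0 in Prox1 OE, also untested. Wnt11 was at 245 in Control replicate 1 and 71.2 in Control replicate 2, against 54.2, 53.1 and 39.3 in Prox1 OE (adjusted p = 0.0613). The receptor Ror2 was at 55.9 and 42.4 in Control and 9.20, 27.1 and 19.7 in Prox1 OE (adjusted p = 0.0569). All of these were picked after their values were seen.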
